A study of Homo sapiens with 13 samples.

Results

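The long arm of chromosome 3 was described gene by gene in human non-small cell lung carcinoma cells, in control cells and in 3 lines selected for growth in bone. Its members were the genes named by a probe set of the array that lists 1 gene, with a start at or above 90 Mb of chromosome 3 in GRCh38. For each gene the probe set with the highest average signal across the 13 arrays was taken. BCHE, HES1 and HCLS1 were left out by the rule, which left 339 of the 11963 genes measured, with starts from 93873051 to 197950190. No filter on low signal was used, so all 339 were tested. The arm was chosen by measured values, since earlier results of these data had shown genes of chromosome 3 at lower signal in M5 than in control. The M5 values against control are therefore given as a description. Calls on that contrast are printed only as counts, are no independent test, and support nothing.

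The 4 control arrays were of cells that had not been selected for metastasis, 2 without a luciferase reporter and 2 with one. The lines M1, M4 and M5, with 3 arrays each, are subpopulations recovered from bone metastases that formed in mice when control cells were given by intracardiac injection. Each array held RNA pooled from 3 groups of cells, and the labels call the arrays of a group biological replicates. Each line is a single selected subpopulation, so the spread between its arrays is that of 1 line and not of independent selections. The sources used here give neither the name of the parental cells nor whether the selected lines carry luciferase. All values were log2 signals made by the authors with RMA, a method that corrects background, gives the arrays a common distribution and summarises the probes of each set. Signals of different probe sets are not set against each other as amounts of RNA, because probes differ in how well they bind.

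As background, the long arm of chromosome 3 carries a cluster of genes that is often gained in squamous lung carcinoma and other squamous tumours. Among them are ECT2, which is needed for cytokinesis, the kinase PRKCI, the translocation protein SEC62, the stem cell factor SOX2 and MECOM, which encodes the zinc finger protein EVI1. The arm also holds genes of cell junctions, ribosomes, mitochondria, membrane traffic and the DNA damage response. Its genes share a chromosome and not a pathway, so they are taken below by role.

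Promoter sequences are shown for 6 members on which the results turn. They are 4 genes with low M5 signals from separate bins in the outer part of the arm, and the only members called in M4 (MECOM) or in M1 with a batch term (MFSD1). Each is the 120 bases before the gene's start, 5′ to 3′ along the gene's strand, from RefSeq with GRCh38.p14. Capitals mark the CCAAT box (CCAAT) and the GC box (GGGCGG), searched on both strands, so that the complements read ATTGG and CCGCCC. The TATA box (TATAAA) was searched as well. ECT2 is at chr3:172750606-172750725 on the plus strand, SEC62 at chr3:169966687-169966806 on the plus strand, CLDN1 at chr3:190322447-190322566 on the minus strand, AP2M1 at chr3:184174735-184174854 on the plus strand, MECOM at chr3:169663713-169663832 on the minus strand and MFSD1 at chr3:158801934-158802053 on the plus strand.
ECT2: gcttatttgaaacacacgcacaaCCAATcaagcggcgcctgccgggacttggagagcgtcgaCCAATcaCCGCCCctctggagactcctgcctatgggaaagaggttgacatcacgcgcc
SEC62: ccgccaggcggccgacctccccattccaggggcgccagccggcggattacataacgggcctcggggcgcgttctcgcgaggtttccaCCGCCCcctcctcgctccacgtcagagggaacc
CLDN1: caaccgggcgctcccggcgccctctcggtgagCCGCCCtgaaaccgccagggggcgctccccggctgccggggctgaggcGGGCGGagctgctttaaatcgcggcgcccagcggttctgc
AP2M1: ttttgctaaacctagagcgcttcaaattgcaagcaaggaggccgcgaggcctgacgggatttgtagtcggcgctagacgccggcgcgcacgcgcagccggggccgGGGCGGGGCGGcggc
MECOM: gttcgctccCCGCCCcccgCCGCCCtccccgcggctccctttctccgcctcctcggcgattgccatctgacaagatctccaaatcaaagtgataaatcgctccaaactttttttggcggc
MFSD1: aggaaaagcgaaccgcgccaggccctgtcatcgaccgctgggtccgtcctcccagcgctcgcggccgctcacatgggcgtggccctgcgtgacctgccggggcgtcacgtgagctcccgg
ECT2 has 2 CCAAT boxes and a GC box in this window, CLDN1, AP2M1 and MECOM have 2 GC boxes each, those of AP2M1 overlapping, and SEC62 has 1. None of these letters is in the printed stretch of MFSD1. Over 250 bases before the start, promoters were found for 303 members and for 9562 of all genes measured. A CCAAT box was in 33.0% of the members' promoters and 35.6% of all, a GC box in 58.1% and 60.6%, and a TATA box in 10.9% and 7.93%. The median number of CpG dinucleotides was 18 in the members and 19 in all. These matches describe the letters of the windows and not sites in use.

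Facts of the arrays that touch the results are these. Keratins that mark epithelial cells were abundant, with KRT18 at a mean log2 signal of 12.5 and KRT19 at 10.4, whereas EPCAM (3.46) and CDH1 (3.79), which also define epithelial cells, lay below the median signal of all genes, 6.20. None of the 3 haematopoietic and 4 endothelial markers measured lay above that median, nor did 3 of 5 fibroblast markers; COL3A1 (9.36) and COL1A1 (7.07) did. The averaged signal of the 6 epithelial markers ran from 7.96 to 8.10 on the control arrays, 7.65 to 7.97 in M1, 7.87 to 7.92 in M4 and 7.71 to 7.91 in M5, so that M4 and M5 lay below control. Its part in the results was not tested. That of the fibroblast markers ran from 5.78 to 5.99 on the control arrays, 6.11 to 6.25 in M1, 5.98 to 6.01 in M4 and 5.87 to 5.97 in M5. The labels give no batches, but the 62 Affymetrix control probe sets fell into 4 groups of arrays, used below as batches. One batch holds 2 controls and M1 replicate 2. Another holds the other 2 controls and replicate 1 of M1, M4 and M5. The next holds M1 replicate 3 and M4 replicates 2 and 3, and the last only M5 replicates 2 and 3, so that for these arrays batch and line cannot be told apart.

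In M1 and M4 the arm as a whole lay at the level of control, and in M5 it lay below it on each of the 3 arrays. The median difference of the 339 members from the control mean was -0.02, -0.02 and -0.01 on the M1 arrays. On the M4 arrays it was 0.01, 0.00 and 0.01. The sign of the M4 median rests on the scaling, since it was -0.0098 with each array centred on its median and -0.0018 with quantile normalization. It rests on single arrays as well, at -0.0032 without replicate 2 of the control without luciferase and -0.0025 without M4 replicate 1. On the M5 arrays the members' median difference was -0.21 in replicate 1, -0.33 in replicate 2 and -0.30 in replicate 3, with no overlap with the other 10 arrays. Over all genes the same medians were -0.02, 0.04 and 0.06 on the M5 arrays. Averaged over arrays, the members' median was -0.33 in M5, with a 10th percentile of -0.90 and a 90th percentile of 0.18. In bulk RNA, fewer cells that express a gene and less RNA of it per cell cannot be told apart.

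**Figure D1:**
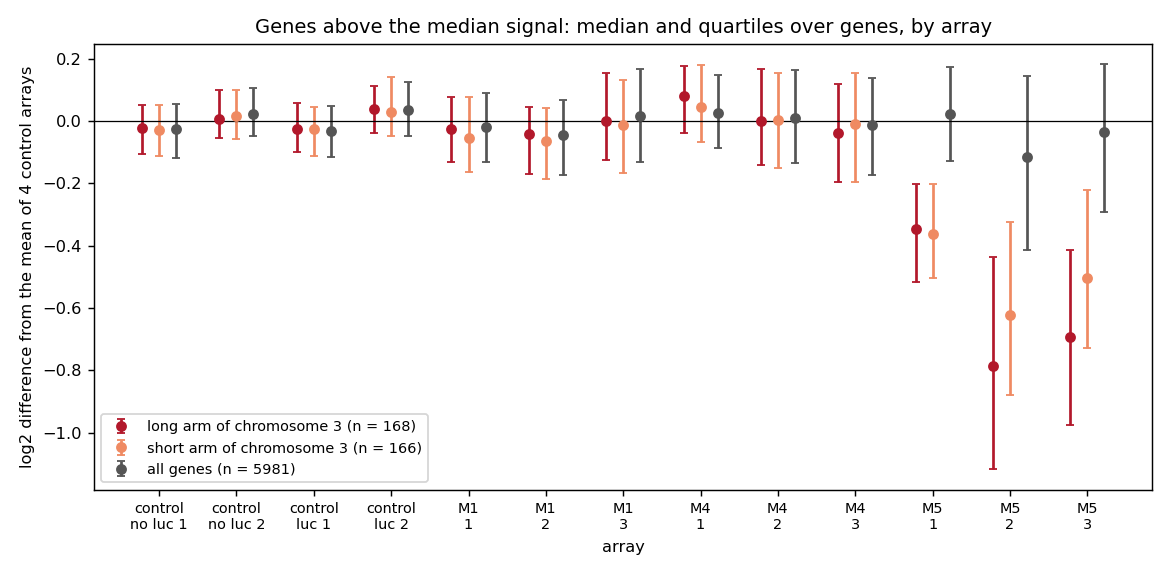
Median log2 difference from the mean of the 4 control arrays on each of the 13 arrays, over the genes above the median signal of the long arm of chromosome 3 (168), the short arm (166) and all genes (5981), with bars from the lower to the upper quartile over genes. The long arm medians of the 3 M5 arrays are -0.35, -0.79 and -0.69, below those of the other 10 arrays, which lie between -0.04 and 0.08.

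The M5 differences most often shared a sign among members with a signal well above the floor of the array, though their size varied between M5 arrays. Above the median signal, 56.7% of all 5981 genes and 93.4% of the 166 short arm genes were lower in M5 than in control. Of the 168 members above it, 166 were lower (98.8%). Their median difference was -0.60, which is 1.52-fold lower, and it was 1.27-fold lower in replicate 1, 1.72-fold in replicate 2 and 1.62-fold in replicate 3. The corresponding M5 arrays had medians of 0.02, -0.12 and -0.04 over all genes above the median signal. The exceptions were TF, the iron carrier transferrin, at a difference of 0.34, and GP9, a platelet glycoprotein, at 0.21. Of all 339 members 117 (34.5%) were more than 0.5 below control in M5, against 30.0% of short arm genes and 4.71% of all genes. More than 1 below were 19 members (5.6%), against 2.24% and 0.460%. None was more than 0.5 above.

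With all genes cut into 4 equal classes of signal, the members' median in M5 was 0.04 in the dimmest class (99 members), -0.12 in the next (72), -0.62 in the third (74) and -0.57 in the brightest (94). All genes of the same classes had medians of 0.07, 0.10, -0.02 and -0.06. All 94 members of the brightest class were lower in M5 than in control, and so were 72 of the 74 in the third. In the class next to the dimmest 41 of 72 were lower (56.9%, against 33.1% of all genes of that class), and in the dimmest 35 of 99 were.

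**Figure D2:**
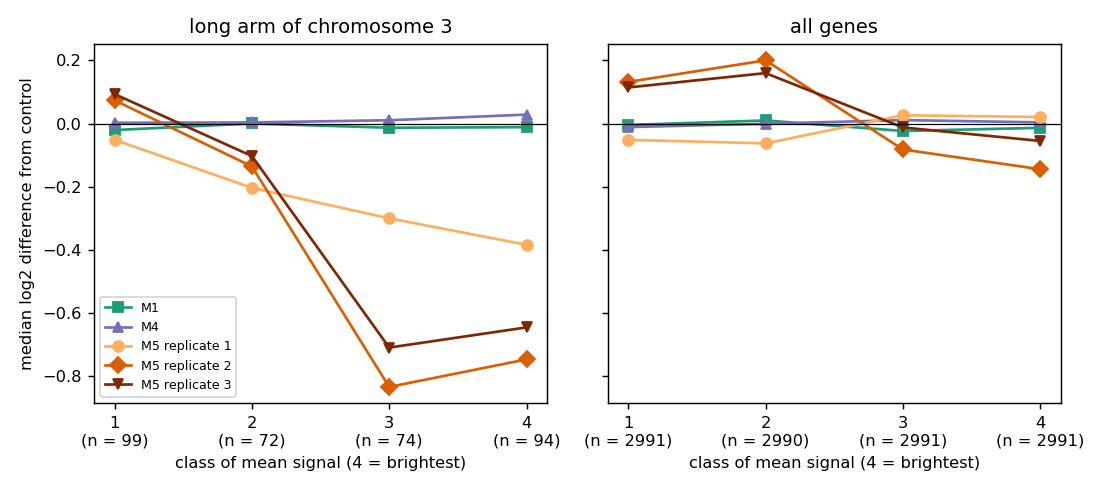
Median log2 difference from control by class of mean signal, from dimmest (1) to brightest (4), for the long arm members on the left and all genes on the right, with M1 and M4 as means of 3 arrays and each M5 array drawn apart. In class 4 the members' medians on the M5 arrays are -0.38, -0.75 and -0.65, and those of all genes are 0.02, -0.14 and -0.06.

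The test that chose the arm was limma with Benjamini-Hochberg adjustment over all genes. By it 80 members (23.6%) were called lower in M5, where 1.85% of all genes were. It called 1 member higher, where 0.527% of all genes were. On the short arm 60 of 313 genes (19.2%) were called lower. All 3 M5 arrays lay below all 4 controls for 153 members (45.1%, against 37.4% of short arm genes and 6.3% of all genes). All 3 lay above all 4 controls for 4 members, where 5.88% of all genes did. These 4 were STXBP5L, ACP3, RTP4 and MELTF, named after their values were seen, with mean M5 signals between 3.95 and 4.06 and thus all dim. For 112 members (33.0%, against 28.4% of short arm genes and 3.10% of all genes) the M5 arrays lay below all 10 others. Since these counts rest on the contrast that chose the arm, nothing is read from them. With the batches as a block 41 members (12.1%) were called lower, where 1.02% of all genes were, and M5 then rests on its replicate 1. The number called lower without a block was 26 or 27 without a control array lacking luciferase (replicate 1 or 2), 31 or 25 without one carrying it (replicate 1 or 2) and 50 without M4 replicate 2. It was 160 without M5 replicate 1, 18 without M5 replicate 2 and 16 without M5 replicate 3. The member called higher, STXBP5L, is the only one in the full fit. With 1 array left out no member was called higher, except 1 without M4 replicate 1 and 18 without M5 replicate 1.

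The 3 M5 arrays were not alike in size. Among the 168 brighter members replicates 2 and 3 were both below replicate 1 for 119 and both above it for 30, and the median of their mean minus replicate 1 was -0.34. It was -0.16 for the 166 short arm genes above the median signal and -0.09 for all genes above it. Replicate 1 can be set against the 2 controls of its own batch, and there the median was -0.21 over all members and -0.37 over the brighter ones, of which 158 were lower. All genes above the median signal gave 0.00 in that comparison. M1 replicate 1 and M4 replicate 1 of the same batch gave -0.02 and 0.00 over all members, and M1 replicate 2, against the controls of its batch, gave -0.02.

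Measures of the arrays moved with the gap between the M5 replicates. Signals on M5 replicates 2 and 3 were drawn in, with lower quartiles over all genes of 4.70 and 4.66 against 4.41 to 4.56 on the other arrays, and upper quartiles of 7.86 and 7.95 against 7.99 to 8.12. A sign of RNA integrity is the 3′ minus 5′ difference of the ACTB and GAPDH control probe sets. For ACTB it was 0.148 and 0.114 on M5 replicates 2 and 3, -0.028 on replicate 1 and -0.190 to -0.036 on the control arrays. For GAPDH it was 0.172 and 0.139 on M5 replicates 2 and 3, 0.028 on replicate 1 and 0.050 to 0.163 on the control arrays. The part of these measures in the gap was not tested. On M1 replicate 3 and M4 replicates 2 and 3 the ACTB difference lay between 0.106 and 0.299, and the brighter members' medians there were 0.00, 0.00 and -0.04.

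Among members above the median signal, lower M5 signals lay along the whole arm. In bins of 10 Mb the median over members above the median signal ran from -0.45 (110 to 120 Mb, 10 such members) to -1.0 (170 to 180 Mb, 8 such members). All such members were lower in M5 in 9 of the 11 bins, and the exceptions TF and GP9 lie in the bins from 120 to 140 Mb. The lowest bright members of the bins were among the genes named below, apart from SLC35A5, a nucleotide sugar transporter (-0.89), and FAIM, an inhibitor of apoptosis (-1.02). From SRPRB to RPL35A, the ribosomal protein gene near the end of the arm, 101 such neighbours in a row were lower in M5. In M1 and M4 the medians of the same bins lay between -0.12 and 0.06. Over all members, bright and dim, the M5 bin medians ran from -0.51 (150 to 160 Mb) to -0.03 (110 to 120 Mb). In the latter bin 17 of 30 members were lower. At the edge of the rule, the first genes inside were PROS1 (-0.37 in M5), NSUN3 (-0.40) and CRYBG3 (-0.34), and the nearest outside were CGGBP1 (-0.65), ZNF654 (0.02) and EPHA3 (0.00). ZNF654 and EPHA3 were dim. The 166 brighter short arm genes had medians of -0.36, -0.62 and -0.50 on the 3 M5 arrays, and whether the arms differ was not tested.

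**Figure D3:**
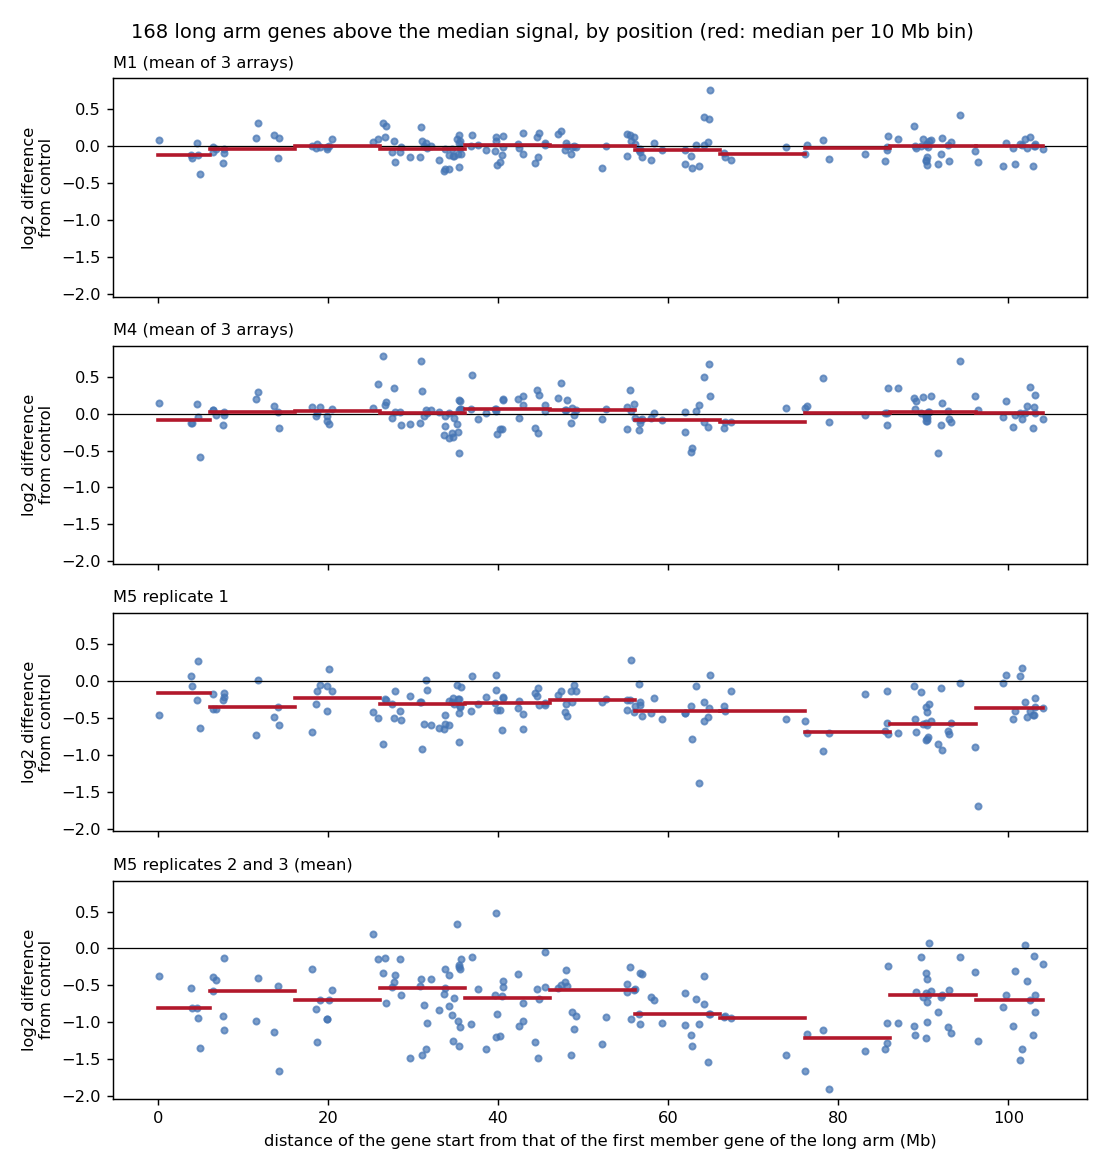
Log2 difference from control of the 168 members above the median signal against the distance of the gene's start, in Mb, from that of the first member, in M1, M4, M5 replicate 1 and the mean of M5 replicates 2 and 3, with red lines for the medians of 10 Mb bins. The bin medians of M1 and M4 lie between -0.12 and 0.06, and those of M5 replicate 1 between -0.69 and -0.17.

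Members with large M5 differences, above the median signal and with all M5 arrays below the controls, are given first by array. ECT2, introduced above, had signals of 8.44 and 8.79 in the controls without luciferase, 8.64 and 8.83 in those with it, 8.64, 8.47 and 8.40 in M1, 8.87, 8.33 and 8.48 in M4, and 7.97, 6.52 and 7.02 in M5. All M5 arrays lay below all others, with a mean of 7.17 ± 0.74 (SD, n = 3) against 8.68 ± 0.18 (SD, n = 4) in control, a difference of -1.50. In M1 and M4 the differences were -0.17 and -0.11 (SE 0.26 for each), and neither passed limma's test.

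SEC62 is part of the machinery that brings proteins into the endoplasmic reticulum. Its signals were 8.61 and 8.59 in the controls without luciferase, 8.58 and 8.71 in those with it, 8.54, 8.46 and 8.56 in M1, 8.66, 8.77 and 8.67 in M4, and 8.07, 6.65 and 7.27 in M5. The 10 arrays outside M5 spanned 8.46 to 8.77, a narrow range, and M5 had a mean of 7.33 ± 0.71 (SD, n = 3), a difference from control of -1.29. Its second probe set gave -0.73.

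CLDN1 encodes claudin 1, a strand-forming protein of tight junctions. Its signals were 8.46 and 8.77 in the controls without luciferase, 8.44 and 8.60 in those with it, 8.05, 8.25 and 8.73 in M1, 8.20, 9.00 and 8.64 in M4, and 6.87, 7.54 and 7.09 in M5. The M5 arrays were the 3 lowest, 7.17 ± 0.34 (SD, n = 3) against 8.57 ± 0.15 (SD, n = 4) in control, and here replicate 1 was the lowest of them.

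AP2M1 is the medium subunit of the AP-2 adaptor, which loads cargo into clathrin-coated pits. Its signals were 10.24 and 10.35 in the controls without luciferase, 10.21 and 10.16 in those with it, 10.36, 10.26 and 10.14 in M1, 10.25, 10.14 and 10.03 in M4, and 9.44, 8.89 and 9.16 in M5. M5 stood apart from the other groups, which overlapped each other, by a difference from control of -1.07.

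Other large M5 differences were in IFT57, a part of the trains that build cilia (-1.31; M5 arrays 6.56, 5.52 and 5.45, controls 6.99 to 7.39), and in HEG1, a membrane protein of cell junctions (-1.27; M5 arrays 6.64, 6.14 and 6.08, controls 7.24 to 7.70). MLF1, MFN1, which fuses mitochondria, PDCD10, a scaffold protein of the STRIPAK complex, TIPARP, an enzyme that adds ADP-ribose, and DCBLD2, a neuropilin-like membrane protein, differed by -1.18, -1.14, -1.13, -1.15 and -1.11. For each of them every M5 array lay below every control. DCBLD2 and TIPARP were also low in M4, by -0.59 and -0.46, neither of which passed the test (adjusted p = 0.479 and 0.662 by limma). Other probe sets of HEG1 (-0.41) and MFN1 (-1.34 and -0.68) had the same sign in M5, and those of MLF1 gave 0.10 and -0.61.

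**Figure D4:**
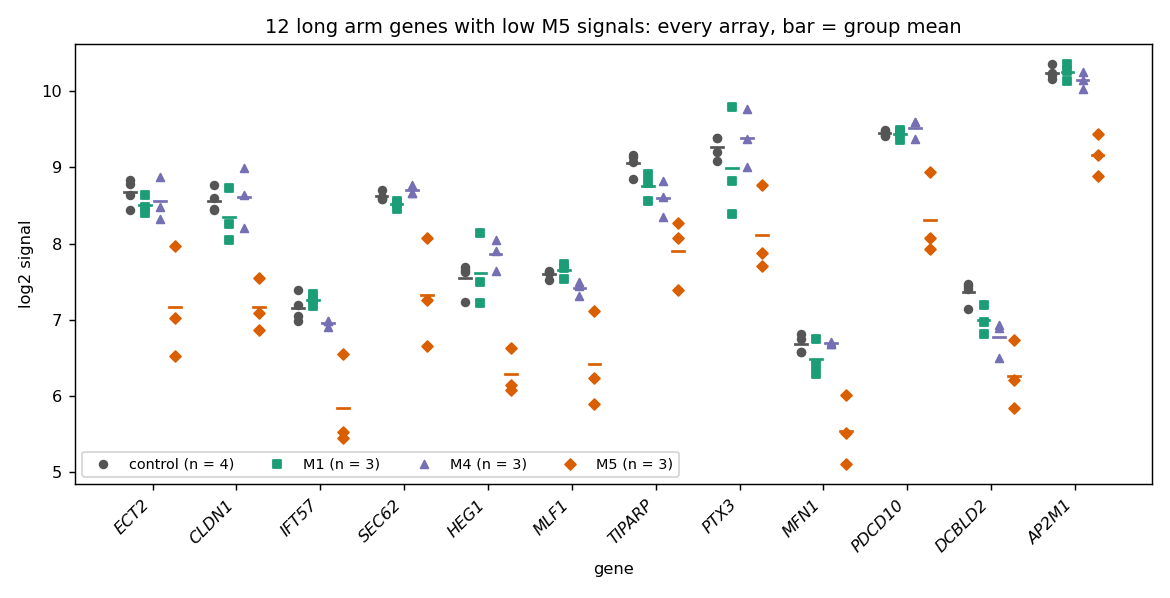
Log2 signal of 12 members on every array, 1 point per array, with a bar for the mean of each group (control n = 4, M1, M4 and M5 n = 3). For each gene the 3 M5 points lie below the 4 control points, and the M5 points are spread more widely than those of control.

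Over the whole arm 242 of the 339 members (71.4%) were lower in M5 than in control, against 43.7% of all genes. The role lists below share some genes, and whether any list differs from the arm was not tested. Of 25 growth drivers listed, genes of the stretch gained in squamous tumours, 21 were measured. Of these, 20 were lower in M5, and the list's median was -0.86, against 0.03 over all genes. On the 3 M5 arrays this median was -0.51, -0.98 and -0.71. PRKCI, an atypical protein kinase C that sets cell polarity, stood at 8.05, 7.56 and 7.64 in M5 and 8.67 to 8.80 in control. SOX2 was dim in every group, with a control mean of 4.74 and an M5 mean of 4.64. The medians of the list in M1 and M4 were 0.00 and 0.07, and MECOM in M4 was its only member called in either line.

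Of 23 genes of replication, repair and mitosis, 22 were lower in M5, with a median of -0.69. ATR, the kinase that answers stalled replication forks, was at 8.17, 6.55 and 7.15 in M5 and 8.15 to 8.38 in control. Its replicate 1 lay inside the control range while replicates 2 and 3 were far below it. None of the 23 was called in M1 or M4, where the medians were -0.01 and 0.01.

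All 27 genes of translation, folding and secretory traffic were lower in M5, with a median of -0.67 and a smallest difference of -0.16. COPG1, a subunit of the coat of vesicles between Golgi and endoplasmic reticulum, had signals of 8.12 and 8.33 in the controls without luciferase, 8.10 and 8.26 in those with it, 8.22, 8.09 and 7.45 in M1, 8.28, 7.42 and 7.30 in M4, and 7.77, 7.04 and 6.71 in M5. Its low arrays were all 3 of M5 together with M1 replicate 3 and M4 replicates 2 and 3, which form 1 batch. The list's medians were -0.05 in M1 and -0.04 in M4, with no member called.

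Among 25 mitochondrial and metabolic genes, 21 were lower in M5, with a median of -0.43. NDUFB5, a subunit of respiratory complex I, was at 9.66, 9.36 and 9.08 in M5 against 10.11 to 10.39 in control, ATP13A3, a polyamine transporter, at 8.67, 8.06 and 8.20 against 8.93 to 9.36, and MCCC1, which breaks down leucine, at 6.29, 6.46 and 6.33 against 6.93 to 7.02. For all 3 genes the M5 arrays did not overlap the controls. No member of this list was called in M1 or M4.

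Of 27 kinases and signalling enzymes 22 were lower in M5 (median -0.39). PAK2, a kinase that acts downstream of Rac and Cdc42, differed by -0.93 in M5, with arrays at 7.96, 7.05 and 7.44. Of 25 transcription factors and cofactors 19 were lower (median -0.42). TBL1XR1, of the NCoR corepressor complex, was at 6.62, 5.43 and 5.37 in M5 and 6.66 to 7.11 in control, with replicate 1 just below the control range. ZBTB11 differed by -0.79 and CNBP, a nucleic acid binding protein and one of the brightest members, by -0.74. Apart from MECOM in M4, no gene of these lists was called in M1 or M4.

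Lists made mostly of dim genes looked different. Among 27 adhesion, junction and surface proteins, 10 lay above the median signal, and 14 were lower in M5 (median -0.01). All 10 brighter ones were lower, with a median of -0.45. ALCAM, an adhesion molecule of the immunoglobulin family, was at 8.40, 8.18 and 8.11 in M5 and 8.88 to 9.49 in control. PLXNA1, a receptor for semaphorins, was at 7.01, 6.78 and 6.85 against 7.63 to 7.66, the tightest control range of the genes named here. Its other bright probe set differed by -0.07 in M5, with M5 replicate 2 above all controls there, so the 2 sets differ in size and in overlap.

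Of 26 secreted factors and their receptors only 2 were above the median signal, and 10 were lower in M5 (median 0.04). PTX3, a secreted pattern recognition protein, was one of the bright ones, with signals of 9.08 and 9.39 in the controls without luciferase, 9.20 and 9.39 in those with it, 8.82, 8.39 and 9.79 in M1, 9.01, 9.77 and 9.37 in M4, and 7.88, 8.77 and 7.70 in M5. M1 and M5 each spanned over 1 log2 unit, and the M5 arrays lay below all controls. CASR, the calcium-sensing receptor, was dim and differed by 0.37 in M5.

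Among 10 genes of the extracellular matrix and its proteases 7 were lower in M5 (median -0.31). COL8A1, a short-chain collagen, had signals of 4.67 and 6.05 in the controls without luciferase, 6.27 and 5.98 in those with it, 4.36, 5.35 and 6.27 in M1, 5.71, 6.61 and 6.09 in M4, and 4.26, 4.80 and 4.51 in M5. M1 replicate 1 and a control without luciferase were as low as M5, so the groups overlapped. PLOD2, which hydroxylates lysines of collagen, was at 7.91, 7.06 and 6.75 in M5 and 8.0 to 8.61 in control, and PCOLCE2, which helps to process procollagen, at 7.09, 5.88 and 6.22 and 7.02 to 7.22. No gene of these lists was called in M1 or M4.

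**Figure D5:**
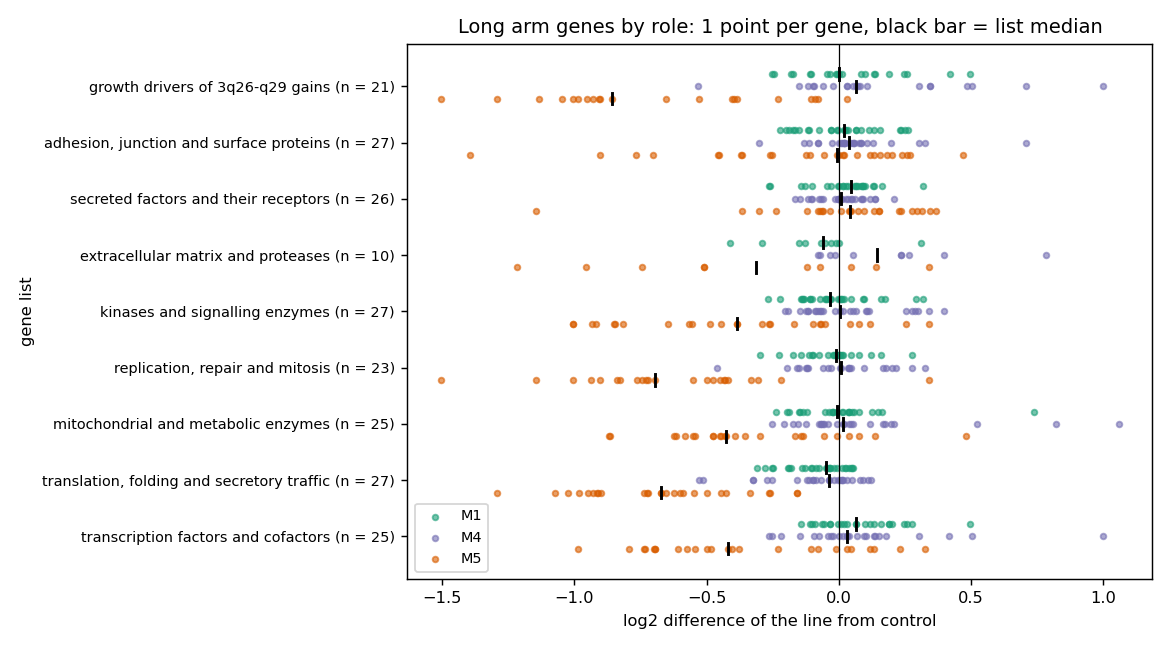
Log2 difference from control of each measured member of 9 role lists in M1, M4 and M5, 1 point per gene, with a black bar for the median of each list in each line. The M5 medians run from -0.86 for growth drivers to 0.04 for secreted factors and their receptors, and those of M1 and M4 lie between -0.06 and 0.14.

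M1 against control asked whether the members differ in a line other than M5, whose values chose the arm. HCLS1 and HES1, long arm genes that the rule left out, differed by 1.36 and 0.59 in M1. The counts and range below do not cover them. No member was called by limma, either higher, where 0.0251% of all genes were, or lower, where 0% were. At an unadjusted p under 0.05 there were 11 members (3.24%, against 3.08% of all genes), and with the batch block 30 (8.85%, against 9.51%). All M1 arrays lay below all controls for 17 members, where 3.59% of all genes did, and above them for 13, where 2.35% did. The members' differences ran from -0.47 (NXPE3) to 0.76 (MFSD1), both named after their values were seen.

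MFSD1 encodes a transporter of the lysosomal membrane. Its signals were 6.30 and 6.66 in the controls without luciferase, 6.95 and 6.91 in those with it, 7.43, 7.44 and 7.51 in M1, 6.99, 6.94 and 6.92 in M4, and 6.78, 5.73 and 5.91 in M5. The M1 arrays were close together and above all 10 others, with a difference from control of 0.76 (SE 0.20, adjusted p = 0.846), which did not pass the test. With the batches as a block the difference was 0.74 (SE 0.10, adjusted p = 0.00854 by limma), and MFSD1 was then the only member called higher in M1, where 0.142% of all genes were. Without M5 replicate 1 the adjusted p was 0.00766. It was called in 2 of 23 alternatives, with adjusted p from 0.00766 to 1.00.

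In M4, MECOM rose and no other member was called. MECOM signals were 4.65 and 4.38 in the controls without luciferase, 4.75 and 4.75 in those with it, 5.28, 4.85 and 5.26 in M1, 5.31, 5.69 and 5.89 in M4, and 4.44, 4.08 and 4.16 in M5. All M4 arrays lay above all controls and all M5 arrays, and M1 lay between control and M4. The M4 mean was 5.63 ± 0.30 (SD, n = 3) against 4.63 ± 0.18 (SD, n = 4), a difference of 1.00 (SE 0.16, adjusted p = 0.0411) by limma, or 2-fold. MECOM stayed below the median signal in every group, and its other probe sets differed by 0.00 and -0.01. The call was lost with the batches as a block (0.77, adjusted p = 0.106), and in all it held in 8 of 22 alternatives. It was also lost without a control lacking luciferase (adjusted p = 0.125 and 0.151 without replicates 1 and 2) or carrying it (0.200 and 0.170), without M1 replicate 1 (0.0676), without M4 replicate 2 or 3 (0.321 and 0.344), and without M5 replicate 3 (0.0608).

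One member of 339 called higher in M4 stands beside 0.0669% of all genes, and none called lower beside 0.0251%. With the batch block no member was called higher by limma, where 0.1% of all genes were, and 21 members (6.19%, against 7.01% of all genes) had an unadjusted p under 0.05. Without it 32 members did (9.44%, against 6.91% of all genes). All M4 arrays lay below all controls for 15 members, where 5.53% of all genes did, and above them for 28, where 5.92% did. Members of comparable size that were not called, named after their values were seen, were HGD, an enzyme of tyrosine breakdown, at 1.06 (SE 0.27, adjusted p = 0.289), whose M4 replicate 1 lay inside the control range, and MGLL, a lipase of monoglycerides, at 0.82 (SE 0.33, adjusted p = 0.648). After them came FSTL1, a secreted glycoprotein related to follistatin, at 0.78 (SE 0.24, adjusted p = 0.469), LPP, a protein of focal adhesions, at 0.71 (SE 0.26, adjusted p = 0.573), and the integrin subunit ITGB5 at 0.71 (SE 0.15, adjusted p = 0.16), all by limma. In limma fits ITGB5 was called without M1 replicate 3 (adjusted p = 0.0440), and HGD without M4 replicate 1 (1.45, adjusted p = 0.0210). Thus 2 members were called in each of those fits. Other probe sets differed in M4 by 1.73 and 0.73 in HGD and by 1.22, 0.33 and 0.14 in ITGB5. The HGD set used above also differed by 0.74 in M1.

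M4 against M1 compared the selected lines that had members near the control level. No member was called by limma, higher or lower, where 0.00836% and 0.0167% of all genes were, and 10 had an unadjusted p under 0.05 (2.95%, against 2.83% of all genes). For MECOM the difference was 0.50 (SE 0.17, adjusted p = 1.00), so a difference between M4 and M1 was not detected for it. Controls with luciferase against those without asked what the reporter cells change. No member was called higher or lower by limma, as 0% of all genes were in either direction, and 2 members had an unadjusted p under 0.05 (0.59%, against 1.29% of all genes). With the batch block 26 members did (7.67%, against 5.93% of all genes), and none was called.

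Other probe sets served as a further reading of the same arrays. Of the members 131 had more than 1 probe set, 549 in all with the others. Of the 210 probe sets not used above, 149 were lower in M5, with a median of -0.12, and of the 73 above the median signal 70 were, with a median of -0.55. They share the arrays that chose the arm and are no independent evidence. For genes named above, other bright sets gave -0.96 in ALCAM, -0.42 in ATR, -1.12 in ATP13A3, -0.91 in PLOD2, -1.26 in PRKCI, and -0.63 and -0.59 in PAK2. ATP2C1, a calcium pump of the Golgi, had probe sets at odds, with differences from -0.70 to 0.03 over 3 bright sets. Of the genes the rule left out, BCHE, which encodes butyrylcholinesterase, differed by -2.93 in M5. HCLS1 and HES1, also left out, differed from control by 1.36 and 0.59 in M1.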

How the data were processed

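Per the submitters' processing notes, the authors used RMA, which gave the deposited log2 values of 22277 probe sets on 13 Affymetrix arrays. The sources used here do not give the software version. Leaving out 62 Affymetrix control probe sets, 19064 probe sets named 1 gene, 1043 several and 2108 none, and only the first kind was used. Positions came from RefSeq, GRCh38.p14, and 0 members needed a new symbol.

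Differences were fitted with limma 3.58.1 in R 4.3.3 as 5 group means over all 13 arrays, with control the mean of both control kinds. The threshold for a call was an adjusted p below 0.05, by Benjamini-Hochberg over 11963 genes. SE is limma's moderated standard error and SD is over arrays. All 5 groups share 1 estimate of the spread of a gene, so the tests of M1 and M4 carry the spread of M5. With only the arrays compared, 0 members were called in M1 and 1 in M4. The number of arrays limits the precision. Nothing in the labels says that replicates came from separate cultures, so p-values measure the spread between these arrays, which may be technical.

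Batches came from Ward clustering of the control probe sets. The members, role lists and tests were chosen with earlier results of these data known. Named genes were all members called in M1 or M4, the 12 lowest M5 members above the median signal whose M5 arrays lay below all controls, the 3 members of each list and the lowest bright member of each 10 Mb bin by M5 difference, the neighbours of the 90 Mb start, and members whose bright probe sets disagreed. Alternatives were a batch or replicate block, a fit of only the arrays compared, eBayes with trend and robust settings, an adjusted p under 0.01, the mean of all probe sets, bright genes only, median centring, quantile normalization, either control kind alone, and leaving out each array. The code was tested on simulated data.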

Additional observations from a re-analysis of the deposited data

Results flagged for a closer look

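For 3 results every M4 array and every M1 array lay on opposite sides of the control mean. The long arm's array medians were below control in M1 and above it in M4, a gap of 0.0210 in M4 minus M1. This difference was not tested, and the sign in M4 rests on the scaling and on single arrays. Over all genes the means of the array medians were -0.0097 in M1 and 0.0020 in M4. IFT57 lay above the control mean in M1 and below it in M4, with M4 minus M1 at -0.30. SEC62 lay below it in M1 and above it in M4, with M4 minus M1 at 0.18. Neither gene was called by limma's direct comparison of M4 with M1. No group has 4 or more arrays of 1 kind, so no array was examined as an outlier within its group.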

How the results depend on the processing

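In M4 against control the single call, MECOM, became 0 calls with the batch block, the replicate block and the mean of all probe sets. Quantile normalization and either control kind alone also gave 0. So did an adjusted p under 0.01 and bright genes only, but these settings could not keep the call. MECOM's adjusted p was 0.0411 by limma in the main fit, and it is not among the bright genes. With 1 array left out 0 to 2 members were called. In M1 the batch block gave 1 member in place of 0, and leaving out 1 array gave 0 to 1. M4 against M1 and the luciferase comparison gave 0 in all 22 alternatives. The 81 members called in M5 became 41 with the batch block, 37 with the replicate block, 9 with only the arrays compared, 15 at an adjusted p under 0.01, 20 with controls without luciferase alone, 19 with controls with luciferase alone, and 16 to 178 with 1 array left out. The causes were not tested. Deviations from the group mean correlated over 0.1 in 7 of 23 pairs of same-numbered arrays of different groups. With other numbers 19 of 44 pairs did. In a group of 2 arrays these deviations mirror each other, so the counts cannot show whether replicate numbers pair the arrays. Both controls numbered 1 were in a batch, and both numbered 2 were in another, with replicate 1 of each line.

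The members' median in M5, -0.33, was -0.22 with the batch block, -0.27 with the mean of all probe sets, -0.60 with bright genes only and -0.37 to -0.29 with 1 array left out. In M5 replicate 1 it moved from -0.21 to -0.35 with bright genes only (-0.22 to -0.21 without 1 control). In replicate 2 it moved from -0.33 to -0.27 with the mean of all probe sets and -0.79 with bright genes only (-0.36 to -0.30 without 1 control), and in replicate 3 from -0.30 to -0.23 and -0.69 (-0.34 to -0.27 without 1 control). In M1 the median was -0.020 with the batch block and -0.025 with luciferase controls alone, against -0.010, and -0.022 to -0.0075 with 1 array left out. In M4 it was 0.0026 with the mean of all probe sets, 0.017 with bright genes only, -0.0098 with centred arrays, -0.0018 with quantile normalization and 0.0042 with luciferase controls alone, against 0.0095, and -0.0032 to 0.022 with 1 array left out. Signals near the floor of the array limit what the dimmer members can show.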
